A study of Mus musculus with 10 samples.

Results

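The transcripts of 10 genes of the machinery that KRAB repressor domains and DNA methylation use for silencing were followed in Neuro2a cells: Trim28, Setdb1, Cbx1, Cbx3, Cbx5, Chd4, Hdac1, Hdac2, Dnmt1 and Dnmt3a. They were chosen by name, with earlier results of these data known, and are 10 of the 55401 genes listed in each library. All 10 passed the filter on low counts in both comparisons. Neuro2a is a mouse neuroblastoma line, labelled wild-type here. RNA was taken from cells transfected with 0.5 µg of each plasmid and kept for 72 h. The groups were dCas9-SCN9A (3 libraries), a nuclease-dead Cas9 directed at SCN9A, with its control dCas9-empty (3 libraries), and ZF-SCN9A (2 libraries), an engineered zinc finger aimed at the same gene, with mCherry, a red fluorescent protein, as its control (2 libraries). SCN9A (Scn9a in mouse) encodes the sodium channel NaV1.7. The labels do not name a repressor domain on either protein, and the published form of this work describes KRAB fusions. The sources used here do not give the promoter driving either protein, the share of cells transfected or what dCas9-empty lacks.

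A KRAB domain brings in TRIM28 (KAP1), a scaffold that recruits the histone H3 lysine 9 methyltransferase SETDB1, the HP1 proteins that bind the methylated histone, and the NuRD complex, which joins the CHD4 remodeller to the deacetylases HDAC1 and HDAC2. DNA methylation at CpG sites is copied at replication by DNMT1 and laid down anew by DNMT3A. These are general factors of nearly every cell type, and a KRAB fusion uses what the cell already makes. The study looked at which transcripts change when Scn9a is knocked down by either protein, and here the transcripts of the silencing factors themselves were read.

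The target gene followed its labels. Scn9a stood at 75.3, 81.1 and 78.3 CPM (counts scaled by library size) in dCas9-empty and at 31.0, 30.8 and 28.2 in dCas9-SCN9A. It stood at 62.4 and 56.3 CPM in mCherry and at 18.8 and 15.7 in ZF-SCN9A. The log2 fold change was -1.38 ± 0.07 (SE) with dCas9 (edgeR adjusted p = 2.24e-09) and -1.76 ± 0.14 with the zinc finger (edgeR adjusted p = 1.71e-34). Of 8 neuroblastoma markers, 7 were at 1 CPM or more in every library. Nefl was the exception, and the summed marker level ran from 2076 to 2466 CPM. Summed levels were 0.587 to 2.29 CPM for 4 immune markers, 8.12 to 21.8 for 5 fibroblast markers, 23.6 to 37.4 for 4 glial markers and 14.4 to 24.1 for 3 endothelial markers. With the zinc finger, the fibroblast marker Col1a1 was higher (3.21 and 2.97 CPM in mCherry, 7.12 and 5.67 in ZF-SCN9A, edgeR adjusted p = 0.0452) and the neuroblastoma marker Hand2 lower (346 and 373 against 305 and 320 CPM, edgeR adjusted p = 0.0426). The part of either in the results below was not tested. Library totals over genes were 15356843 to 18984566 counts in the dCas9 arm and 4412097 to 7478956 in the zinc-finger arm, and standard errors were larger in the second arm for all of the 10 genes but Cbx5 and Dnmt1. Depth, control and the number of libraries all differ between the arms. Their parts and that of the repressor in any difference of level or of change between arms cannot be told apart.

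The bases just before the start of transcription are shown for 4 genes, because CpG sites there are the substrate of the DNA methyltransferases. The first is the target Scn9a. Of the 10 genes, Trim28 was the highest per exon length, Dnmt3a the lowest, and Chd4 the only one called in the main tests. Each run holds the 250 bases before the start, 5′ to 3′, from RefSeq on build GRCm38.p6, with every CpG in capitals.
Scn9a (chr2:66634963-66635212, minus strand): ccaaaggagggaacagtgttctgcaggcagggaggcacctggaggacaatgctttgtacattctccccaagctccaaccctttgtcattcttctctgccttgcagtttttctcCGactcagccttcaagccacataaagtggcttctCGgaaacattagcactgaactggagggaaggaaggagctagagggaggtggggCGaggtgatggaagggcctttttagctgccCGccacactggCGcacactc
Trim28 (chr7:13023902-13024151, plus strand): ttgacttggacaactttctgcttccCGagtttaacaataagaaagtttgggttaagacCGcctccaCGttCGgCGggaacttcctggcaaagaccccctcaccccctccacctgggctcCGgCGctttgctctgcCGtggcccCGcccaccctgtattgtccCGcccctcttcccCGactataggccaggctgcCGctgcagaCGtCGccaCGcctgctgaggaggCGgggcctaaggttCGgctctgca
Chd4 (first start site, chr6:125095731-125095980, plus strand): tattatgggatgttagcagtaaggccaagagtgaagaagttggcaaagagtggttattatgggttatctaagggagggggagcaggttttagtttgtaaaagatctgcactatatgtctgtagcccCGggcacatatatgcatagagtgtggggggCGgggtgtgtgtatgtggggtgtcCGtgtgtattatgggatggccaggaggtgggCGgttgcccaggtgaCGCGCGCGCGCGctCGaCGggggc
Dnmt3a (second start site, chr12:3806910-3807159, plus strand): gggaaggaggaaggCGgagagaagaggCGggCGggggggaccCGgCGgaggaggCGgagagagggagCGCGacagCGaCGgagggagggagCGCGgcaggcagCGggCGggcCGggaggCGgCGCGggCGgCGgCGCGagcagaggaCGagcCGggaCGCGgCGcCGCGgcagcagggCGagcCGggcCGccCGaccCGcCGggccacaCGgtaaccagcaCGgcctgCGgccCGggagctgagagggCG
The Scn9a run holds 5 CpG, that of Trim28 17, that of Chd4 12 and that of Dnmt3a 40. The first listed start site was taken, except for Dnmt3a, where the site with the most CpG is shown. Its other sites hold 38 and 15 CpG, and the second site of Chd4 holds 23. Promoters of 9 of the 10 genes were found (not Hdac1), 16 start sites in all. Their median was 19.5 CpG in 250 bases, beside a median of 6 over all 32851 RefSeq promoters. Windows of the same gene can overlap, as for Chd4 and Dnmt3a. The RefSeq promoters were counted whether or not their genes were transcribed in these cells. The range within the group was wide, from 2 CpG at the first start site of Dnmt1 to the 40 of Dnmt3a. Counting CpG letters says nothing about whether those sites were methylated, which was not measured.

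All 10 genes were transcribed in every library, with at least 431 counts. Levels between genes are compared here as RPKM, the CPM value per kilobase of merged exon. Trim28 was highest in each of the 10 libraries, at 114 to 139 RPKM. Chd4 (66.6 to 88.9) and Hdac2 (54.7 to 72.2) shared the next places, and their order changed between libraries. Cbx5 (32.2 to 45.1), Dnmt1 (29.3 to 43.9), Hdac1 (28.4 to 35.0) and Cbx1 (26.3 to 35.3) formed a middle block whose ranges overlap. Cbx3 (17.3 to 22.4), Setdb1 (12.2 to 15.7) and Dnmt3a (8.22 to 11.6) held places 8, 9 and 10 in every library. The methyltransferase was thus the scarce transcript of the TRIM28-SETDB1 pair, with 8.34 to 9.74 times as much Trim28 as Setdb1 per length. Within the HP1 family, HP1α (Cbx5) made up 41.3 to 48.2% of the summed RPKM, HP1β (Cbx1) 31.9 to 35.2% and HP1γ (Cbx3) 19.7 to 23.5%. The maintenance enzyme Dnmt1 exceeded Dnmt3a by 2.98 to 4.57 times. Dnmt3a in turn exceeded Dnmt3b, the other de novo methyltransferase, by 3.61 to 5.55 times. Hdac2 exceeded Hdac1 by 1.61 to 2.38 times. Merged exon length counts every annotated exon, 16642 bases for Dnmt3a, so these places and ratios depend on it. By CPM, Dnmt3a (137 to 194) was above Setdb1 (83.4 to 108) in every library. Chd4 (534 to 713 CPM) was above Trim28 (473 to 578 CPM) in every library. Hdac1 and Cbx3 have near-identical copies elsewhere, so their levels could be understated.

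**Figure D1:**
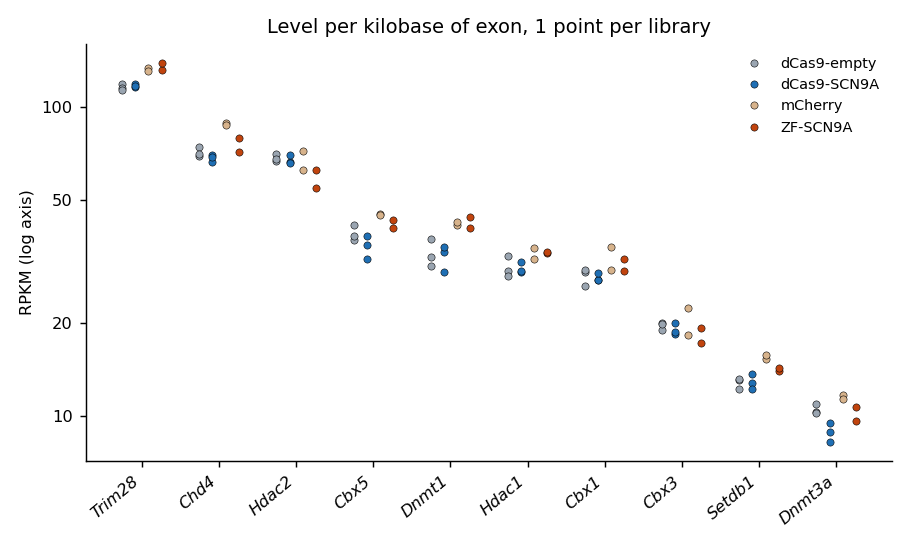
RPKM (log axis) of the 10 genes in each of the 10 libraries, ordered by their median, with colour for the group. Trim28 is highest in every library, at 114 to 139 RPKM, and Dnmt3a lowest, at 8.22 to 11.6 RPKM.

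With dCas9-SCN9A, 0 of the 10 genes passed the threshold of edgeR's quasi-likelihood test (adjusted p under 0.05), as did 0.041% of all 14628 tested genes. At an unadjusted p under 0.05 there were 2, Cbx5 and Dnmt3a, both lower (10.1% of all genes in either direction and 5.92% as lower). DESeq2 called 1 of the 10, Dnmt3a (1.35% of the genes to which it gave an adjusted p, 1.31% as lower). The median log2 fold change of the 10 was -0.03, beside 0.01 over all tested genes. With ZF-SCN9A, edgeR called 1 of the 10, Chd4, which was lower (4.72% of 12899 tested genes in either direction and 2.78% as lower). At an unadjusted p under 0.05 there were 3, Chd4, Hdac2 and Dnmt3a, all lower (16.2% of all genes in either direction and 8.4% as lower). DESeq2 called 0 of the 10 (1.02% of the genes to which it gave an adjusted p). The median of the 10 was -0.12, beside 0.00174 over all tested genes. The difference between the repressors, tested in a single fit of all 10 libraries, was called for 0 of the 10 by edgeR, by DESeq2 and at an unadjusted p under 0.05 (0.907% of 15766 genes by edgeR, 1.3% by DESeq2 and 10.9% unadjusted). In this kind of bulk sample, fewer cells expressing a gene and less RNA per cell cannot be told apart.

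**Figure D2:**
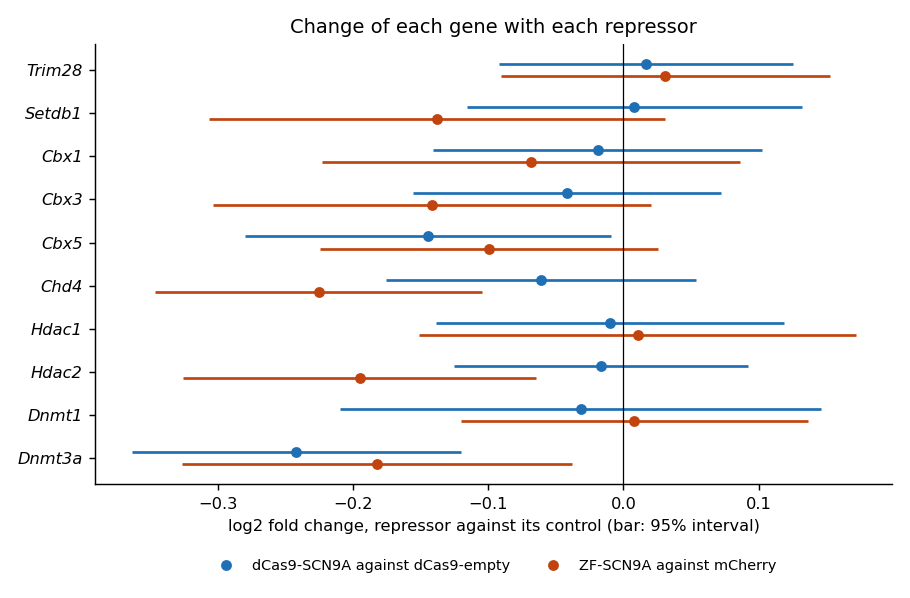
log2 fold change of each gene with dCas9-SCN9A against dCas9-empty (blue) and with ZF-SCN9A against mCherry (red), with 95% intervals from edgeR. All intervals lie within -0.36 and 0.17, and those of Cbx5 with dCas9, of Chd4 and Hdac2 with the zinc finger and of Dnmt3a with both repressors lie wholly below 0.

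Trim28, the scaffold (chr7:12999114-13031035 in GENCODE M21 on GRCm38, plus strand), did not pass in either arm. It stood at 493, 481 and 473 CPM in dCas9-empty and at 482, 494 and 486 in dCas9-SCN9A. In the other arm it stood at 556 and 545 CPM in mCherry and at 547 and 578 in ZF-SCN9A. The repressor and control groups overlap in both arms. All 4 libraries of the zinc-finger arm lie above all 6 of the dCas9 arm, but CPM was scaled within each arm. Its log2 fold change was 0.02 ± 0.05 with dCas9 (95% interval -0.09 to 0.13, edgeR adjusted p = 0.946) and 0.03 ± 0.06 with the zinc finger (-0.09 to 0.15, edgeR adjusted p = 0.875). These intervals span 93.8 to 109% and 93.9 to 111% of the control level, so changes beyond these bounds lie outside the intervals.

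Setdb1, the H3 lysine 9 methyltransferase that TRIM28 recruits (chr3:95323525-95357202, minus strand), stood at 89.4, 83.4 and 90.3 CPM in dCas9-empty and at 87.5, 83.6 and 93.5 in dCas9-SCN9A. It stood at 105 and 108 CPM in mCherry and at 95.6 and 97.8 in ZF-SCN9A. The dCas9 groups overlap, and the ZF-SCN9A pair lies below the mCherry pair, as for 22.3% of all tested genes. Its log2 fold change was 0.01 ± 0.06 with dCas9 (edgeR adjusted p = 0.975) and -0.14 ± 0.09 with the zinc finger (edgeR adjusted p = 0.455), which did not pass. Of its exon bases, 4.73% overlap Cers2 and Gm37500 on the other strand, and the counts used do not separate strands.

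The HP1 genes did not pass the test in either comparison. Cbx1 (HP1β, chr11:96789127-96808640, plus strand) stood at 125, 112 and 127 CPM in dCas9-empty, 117, 117 and 124 in dCas9-SCN9A, 151 and 127 in mCherry and 138 and 126 in ZF-SCN9A. Cbx3 (HP1γ, chr6:51470360-51483704, plus strand) stood at 119, 113 and 119 CPM in dCas9-empty, 120, 110 and 112 in dCas9-SCN9A, 134 and 109 in mCherry and 116 and 104 in ZF-SCN9A. For both genes the groups overlap in each arm, and the 2 mCherry libraries differ more from each other than the group means do. Cbx5 (HP1α, chr15:103191544-103239816, minus strand) stood at 375, 335 and 345 CPM in dCas9-empty and at 343, 290 and 322 in dCas9-SCN9A, which overlap. It stood at 406 and 402 CPM in mCherry and at 387 and 366 in ZF-SCN9A, which do not (lower, as for 22.3% of tested genes). Its log2 fold changes were -0.14 ± 0.06 with dCas9 (unadjusted p = 0.0382, edgeR adjusted p = 0.463) and -0.10 ± 0.06 with the zinc finger (edgeR adjusted p = 0.477). Those of Cbx1 were -0.02 ± 0.06 and -0.07 ± 0.08, and those of Cbx3 -0.04 ± 0.05 and -0.14 ± 0.08, in the same order. Processed copies of Cbx3 held at most 11 counts in any library. Reads that fit several places (6.62 to 8.98% of reads) were in no gene's count, so the loss of Cbx3 reads to copies is not shown.

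Chd4, the ATPase of NuRD (chr6:125095981-125130591, plus strand), was lower with the zinc finger. It stood at 713 and 700 CPM in mCherry and at 575 and 635 in ZF-SCN9A, and the groups do not overlap (22.3% of all tested genes have both ZF-SCN9A libraries below both mCherry libraries). The log2 fold change was -0.23 ± 0.06, or 85.5% of the control level (95% interval 78.6 to 93.0%, edgeR adjusted p = 0.0103). With dCas9 the levels were 596, 556 and 565 CPM in dCas9-empty and 561, 534 and 551 in dCas9-SCN9A, which overlap. The log2 fold change there was -0.06 ± 0.05 (edgeR adjusted p = 0.758). Subtracting the zinc-finger change from the dCas9 change gave 0.17 ± 0.09 (edgeR adjusted p = 0.470), so the arms were not shown to differ. With the zinc finger, stranded count columns 4 and 3 gave a Chd4 change of -0.23 and -0.22. Both columns hold fewer reads than the unstranded column, with near-equal totals in each library. The Chd4 call did not hold with DESeq2 (adjusted p = 0.0840) or with either of these columns (edgeR adjusted p = 0.0663 and 0.0608). It was also lost without mCherry replicate 1 (-0.21, edgeR adjusted p = 0.0958), ZF-SCN9A replicate 1 (-0.16, 0.564) or ZF-SCN9A replicate 2 (-0.30, 0.0635), while the sign stayed negative.

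The level of Chd4 relative to Chd3 and Chd5, the other remodellers of NuRD, was lower in the ZF-SCN9A libraries. Per length, Chd4 exceeded Chd5 by 10.3 and 11.8 times in the mCherry libraries and by 7.86 and 8.16 times in the ZF-SCN9A libraries. It exceeded Chd3 by 4.98 and 5.19 times in mCherry and by 3.67 and 4.07 times in ZF-SCN9A. With the zinc finger, Chd3 took 0.17 ± 0.08 and Chd5 0.22 ± 0.09 (log2, edgeR adjusted p = 0.211 and 0.154). The higher readings of Chd3 and Chd5 thus enter the ratios too. In the dCas9 arm the ratio to Chd3 was 3.49 to 3.79 in dCas9-empty and 3.51 to 3.71 in dCas9-SCN9A. That to Chd5 was 9.95 to 11.2 in dCas9-empty and 9.85 to 10.1 in dCas9-SCN9A. These ratios are descriptions and were not tested.

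Hdac1 and Hdac2, the paired deacetylases of NuRD and related complexes, did not pass in either arm. Hdac1 (chr4:129516104-129542713, minus strand) stood at 113, 102 and 98.0 CPM in dCas9-empty, 101, 101 and 108 in dCas9-SCN9A, 121 and 111 in mCherry and 116 and 117 in ZF-SCN9A. The groups overlap in both arms, and the log2 fold changes were -0.01 ± 0.06 and 0.01 ± 0.08 (edgeR adjusted p = 0.974 in each). A processed pseudogene, Gm10093, matches Hdac1 over 1444 bases at 99.4% identity and held 71 to 251 counts, 11.5 to 15.6% of the Hdac1 counts. Reads could be split between them or, where they fit both, left out of the counts. Hdac2 (chr10:36974544-37001889, plus strand) stood at 316, 298 and 303 CPM in dCas9-empty and at 298, 295 and 314 in dCas9-SCN9A. It stood at 323 and 279 CPM in mCherry and at 279 and 245 in ZF-SCN9A, where the lower mCherry library and the higher ZF-SCN9A library are equal to 3 digits. The log2 fold changes were -0.02 ± 0.05 with dCas9 (edgeR adjusted p = 0.946) and -0.20 ± 0.07 with the zinc finger (edgeR adjusted p = 0.0630). The zinc-finger value rests on single libraries. Without mCherry replicate 2 it passed (-0.30, edgeR adjusted p = 0.00304), while without mCherry replicate 1 it was -0.084 (edgeR adjusted p = 0.772). Cbx3 behaved likewise, at -0.28 (edgeR adjusted p = 0.0359) without mCherry replicate 2 and 0.015 (0.980) without mCherry replicate 1. The ratio of Hdac2 to Hdac1 per length was 1.93 and 2.06 in mCherry and 1.61 and 1.85 in ZF-SCN9A.

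Dnmt1, which restores methylation after replication (chr9:20907209-20959888, minus strand), did not pass in either arm. It stood at 276, 226 and 241 CPM in dCas9-empty, 250, 216 and 261 in dCas9-SCN9A, 307 and 314 in mCherry and 324 and 300 in ZF-SCN9A. The groups overlap in both arms. The log2 fold changes were -0.03 ± 0.08 (edgeR adjusted p = 0.934) and 0.01 ± 0.07 (edgeR adjusted p = 0.975). Its standard error in the dCas9 arm was the largest of the 10 genes, and the interval there spans 86.5 to 111% of control.

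Dnmt3a, the de novo methyltransferase (chr12:3806007-3914443, plus strand), had the lowest readings relative to control in the dCas9 arm. It stood at 182, 171 and 170 CPM in dCas9-empty and at 158, 137 and 148 in dCas9-SCN9A. All 3 dCas9-SCN9A libraries lie below all 3 controls, as for 9.14% of all tested genes, and Dnmt3a is the only one of the 10 with that pattern. The log2 fold change was -0.24 ± 0.06, or 84.5% of control (95% interval 77.7 to 92.0%, unadjusted p = 6.12e-04, edgeR adjusted p = 0.172), which did not pass. DESeq2 gave -0.25 with an adjusted p of 0.0363, and edgeR without the low-count filter gave an adjusted p of 0.00695, both past the threshold. DESeq2 after the edgeR filter did not call it. In the zinc-finger arm Dnmt3a stood at 194 and 189 CPM in mCherry and at 160 and 178 in ZF-SCN9A, which do not overlap. The ZF-SCN9A pair was lower, as for 22.3% of all tested genes. The log2 fold change there was -0.18 ± 0.07 (unadjusted p = 0.0131, edgeR adjusted p = 0.143). It passed under none of the alternatives, and was -0.063 with stranded column 4, -0.30 with stranded column 3 and -0.10 without ZF-SCN9A replicate 1. The arms share no library, and the changes differed by -0.05 ± 0.10 (95% interval -0.25 to 0.14, edgeR adjusted p = 0.890). Per length, Dnmt3a exceeded Dnmt3b by 5.29 ± 0.32 times (SD, n = 3) in dCas9-empty and 4.21 ± 0.27 times (n = 3) in dCas9-SCN9A. It did so by 4.67 and 5.55 times in mCherry and by 3.61 and 4.08 times in ZF-SCN9A. Dnmt3b took 0.09 ± 0.11 with dCas9 and 0.22 ± 0.21 with the zinc finger (log2, edgeR adjusted p = 0.848 and 0.671). Its higher readings thus enter the ratios too, which are descriptions and were not tested.

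Exon length moved with the log2 fold changes, and Dnmt3a has 16642 exon bases, the most of the 10. With dCas9, the median log2 fold change over all tested genes went down over 5 equal-sized bins of exon length, from 0.09 in the shortest bin through 0.03, 0.01 and -0.01 to -0.06 in the longest. The longest bin holds Cbx5, Chd4, Dnmt1 and Dnmt3a. Its quartiles were -0.13 and 0.02, with Dnmt3a at -0.24 below them. With a curve for exon length in the fit, Dnmt3a took -0.15 with dCas9 (edgeR adjusted p = 0.501) and -0.12 with the zinc finger (edgeR adjusted p = 0.466). Chd4 with the zinc finger kept -0.22 (edgeR adjusted p = 0.0140) under that curve, and Hdac2 took -0.21 (edgeR adjusted p = 0.0412). In the zinc-finger arm the medians of the bins ran from 0.05 to -0.04. How much of the Dnmt3a difference goes with length was not tested beyond this curve.

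**Figure D3:**
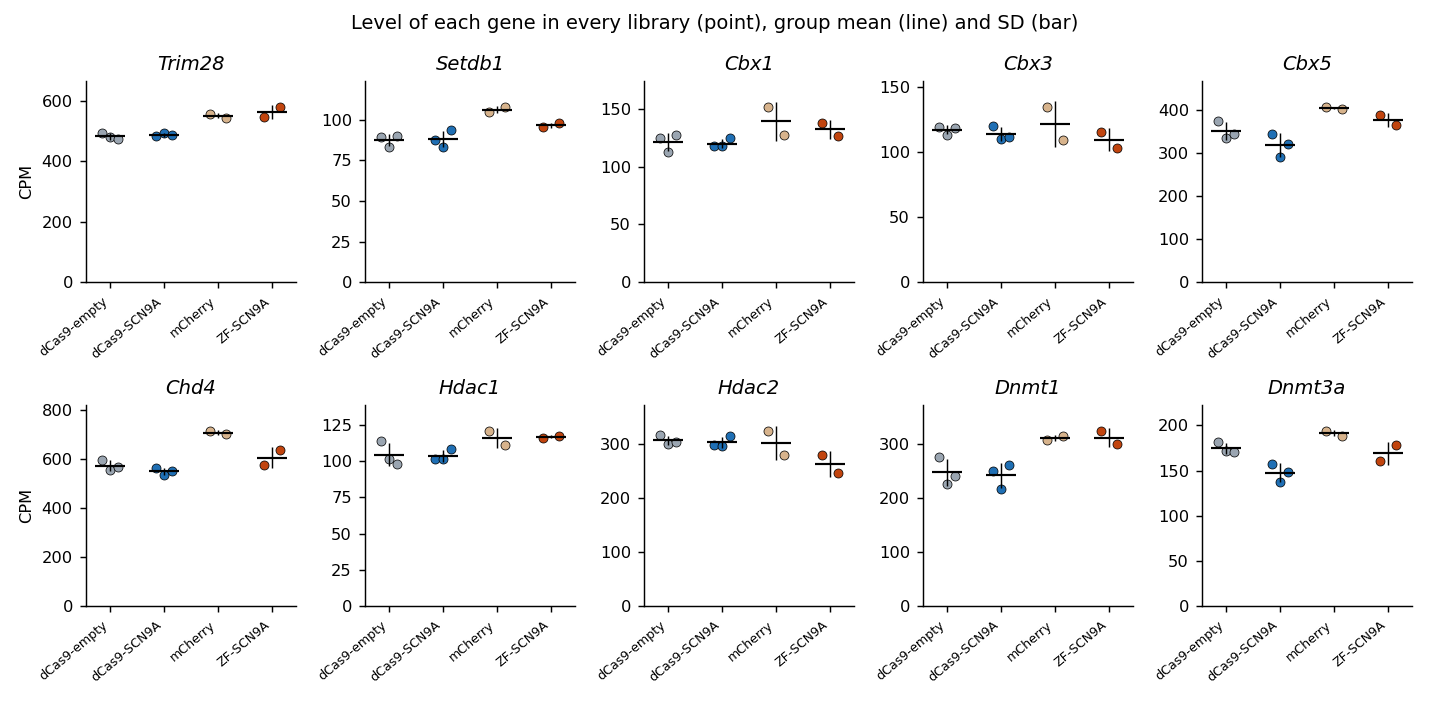
CPM of each gene in every library (points) with the group mean (line) and SD (bar), each axis starting at 0. Dnmt3a is lower in all 3 dCas9-SCN9A libraries than in all 3 dCas9-empty libraries, and Chd4 is lower in both ZF-SCN9A libraries than in both mCherry libraries.

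Partners of these factors were read from 4 lists of 73 genes: other members of NuRD and class I deacetylase complexes, H3 lysine 9 methylation and TRIM28 partners, the DNA methylation machinery, and imprinted or germline genes that DNA methylation holds. With dCas9, edgeR called 0 of the 62 tested, and DESeq2 called 0 of the 41 it adjusted. At an unadjusted p under 0.05 there were 5, against 10.1% of all tested genes. Those 5 were Sin3a (-0.14 ± 0.05), Trim33 (-0.16 ± 0.05), Suv39h2 (-0.21 ± 0.09), Meg3 (0.25 ± 0.10) and Nnat (0.18 ± 0.07), on the log2 scale. Sin3a is the scaffold of another HDAC1/2 complex, Trim33 a relative of Trim28, Suv39h2 an H3 lysine 9 methyltransferase, and Meg3 and Nnat are imprinted. Other genes with the smallest p of their lists were Mta1 (-0.11 ± 0.05), Rbbp4 (-0.11 ± 0.05), Fam208a (-0.19 ± 0.10), Tet1 (-0.40 ± 0.21), Tet3 (-0.15 ± 0.08) and Cdkn1c (0.68 ± 0.38). The median over the 62 was -0.04. With the zinc finger, edgeR called 4 of the 60 tested, Atrx, Daxx and Rcor3 as lower and Dlk1 as higher, against 4.72% of all tested genes. DESeq2 called 3 of these, all but Rcor3. The median over the 60 was -0.04 there too. At an unadjusted p under 0.05 were 16 of the 60, with 12 of them lower (16.2% of all tested genes in either direction and 8.4% as lower).

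**Figure D4:**
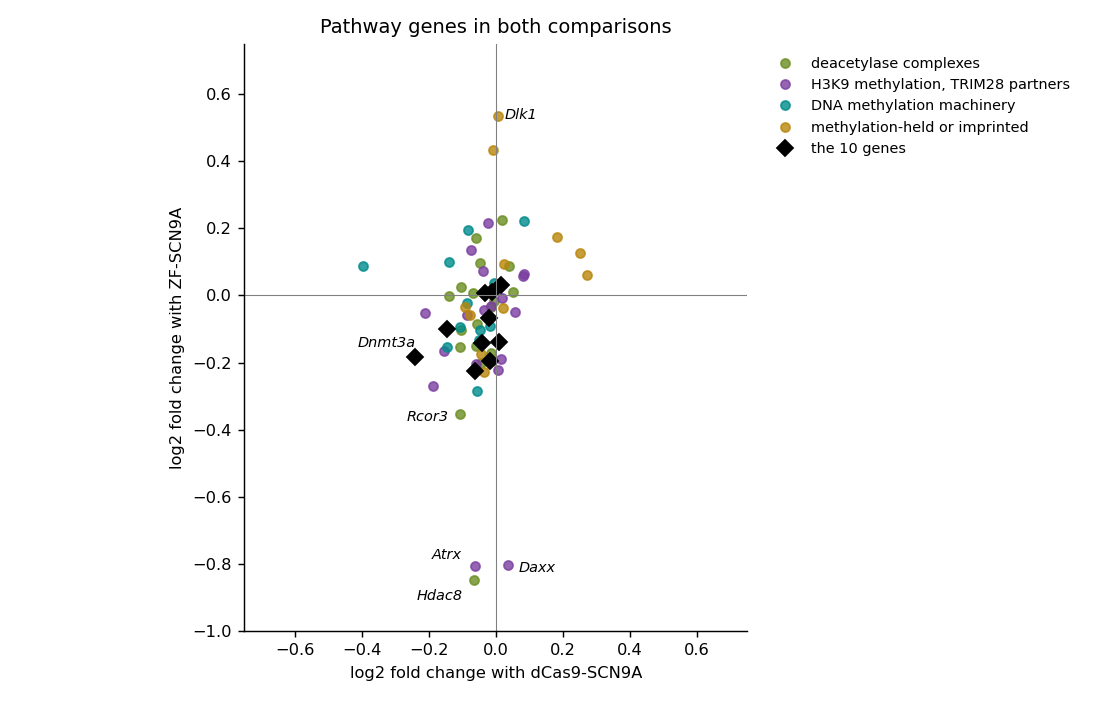
log2 fold change of each tested gene with dCas9-SCN9A (horizontal) and with ZF-SCN9A (vertical), with the 10 genes as diamonds and 4 partner lists as coloured points. Atrx and Daxx lie near 0 with dCas9 and near -0.81 and -0.80 with the zinc finger, while the 10 genes lie between -0.24 and 0.03 on both axes.

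Atrx and Daxx, which together form a histone H3.3 chaperone that works at heterochromatin, both fell with the zinc finger. Atrx (chrX:105797615-105929403, minus strand) stood at 149 and 133 CPM in mCherry and at 79.2 and 81.9 in ZF-SCN9A. Daxx (chr17:33909414-33915590, plus strand) stood at 43.3 CPM in both mCherry libraries and at 24.1 and 25.6 in ZF-SCN9A. The groups do not overlap for either gene, with ZF-SCN9A lower as for 22.3% of all tested genes. The log2 fold changes were -0.81 ± 0.09 for Atrx (edgeR adjusted p = 2.67e-18) and -0.80 ± 0.14 for Daxx (edgeR adjusted p = 5.51e-07). Both were at 57.2% of control. In the dCas9 arm Atrx stood at 132, 134 and 145 CPM in dCas9-empty and 139, 123 and 131 in dCas9-SCN9A, and Daxx at 36.4, 36.4 and 40.2 and at 37.3, 38.8 and 39.8. Those groups overlap. The difference between the repressors passed for both, at 0.75 ± 0.10 for Atrx (edgeR adjusted p = 2.78e-05) and 0.85 ± 0.14 for Daxx (edgeR adjusted p = 4.67e-04). Daxx rests on fewer reads, and with stranded column 4 its zinc-finger value was -0.60 (edgeR adjusted p = 0.0578) and its difference 0.68 (edgeR adjusted p = 0.110). The ratio of Atrx to Daxx per length was 0.444 and 0.498 in mCherry and 0.463 and 0.476 in ZF-SCN9A.

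With the zinc finger, edgeR called 1 of 19 tested genes in the deacetylase-complex list and 0 of 12 in the DNA methylation list. The share over all tested genes was 4.72%. Rcor3, a CoREST subunit that links deacetylases to the demethylase Kdm1a, stood at 69.6 and 71.4 CPM in mCherry and at 51.5 and 59.7 in ZF-SCN9A (-0.35 ± 0.10, edgeR adjusted p = 0.0206). Its call was lost with DESeq2 (adjusted p = 0.601) and without any of mCherry replicate 1 (edgeR adjusted p = 0.0668), mCherry replicate 2 (0.0765) or ZF-SCN9A replicate 1 (-0.24, 0.530). It was lost as well with stranded column 4 (-0.17, edgeR adjusted p = 0.592) and with the exon length correction (-0.31, 0.0637). Of the other deacetylase-complex genes with the smallest p, Chd5 took 0.22 ± 0.09 and Rbbp4, a histone-binding subunit of NuRD, -0.15 ± 0.07. Neither passed after adjustment with the zinc finger, nor did Atf7ip, the cofactor of Setdb1 (0.22 ± 0.09, edgeR adjusted p = 0.149). Atf7ip passed with the exon length correction (0.30, edgeR adjusted p = 0.0219). Hdac8, a scarce class I deacetylase singled out after its values were seen, stood at 5.04 and 3.77 CPM in mCherry and at 2.37 and 2.50 in ZF-SCN9A (-0.85 ± 0.41, edgeR adjusted p = 0.273). In the DNA methylation list edgeR called 0 of 12 tested genes in either comparison (0.041% of all tested genes with dCas9 and 4.72% with the zinc finger). DESeq2 called 0 of the 6 with an adjusted p with dCas9 and 0 of 12 with the zinc finger (1.35% and 1.02% of all genes it adjusted). There were 0 at an unadjusted p under 0.05 with dCas9 and 1 with the zinc finger (10.1% and 16.2% of all tested genes). That 1 was Tet3, a methylcytosine oxidase, at -0.15 ± 0.07 with the zinc finger and -0.15 ± 0.08 with dCas9. Also not past the threshold were Zbtb33 (-0.29 ± 0.18) and Tdg (-0.13 ± 0.11) with the zinc finger, which bind methylated DNA and excise oxidised methylcytosine.

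Of the genes held by DNA methylation, edgeR called 1 of 11 tested with the zinc finger (4.72% of all tested genes). With dCas9 it called 0 of 13 (0.041%). Dlk1, an imprinted gene expressed from the paternal copy, stood at 97.2 and 120 CPM in mCherry and at 160 and 155 in ZF-SCN9A (0.54 ± 0.08, edgeR adjusted p = 3.80e-09). It stood at 65.4, 71.3 and 67.0 CPM in dCas9-empty and 67.3, 77.9 and 59.4 in dCas9-SCN9A (0.01 ± 0.08). The difference between the repressors did not pass for Dlk1 (-0.52 ± 0.14, edgeR adjusted p = 0.105), but did with DESeq2 (adjusted p = 0.0384) and without mCherry replicate 2 (-0.68, edgeR adjusted p = 0.0227) or dCas9-SCN9A replicate 2 (-0.63, 0.00108). Mest, also imprinted, stood at 653 and 585 CPM in mCherry and 560 and 537 in ZF-SCN9A (-0.17 ± 0.06, edgeR adjusted p = 0.0805). Mest passed with the exon length correction (-0.19, edgeR adjusted p = 0.0446) and without mCherry replicate 2 (-0.25, 0.0114), but was -0.091 (0.721) without mCherry replicate 1. Nnat took 0.17 ± 0.13. Of 22 genes in this list, 9 did not reach the filter with dCas9 and 11 did not with the zinc finger.

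**Figure D5:**
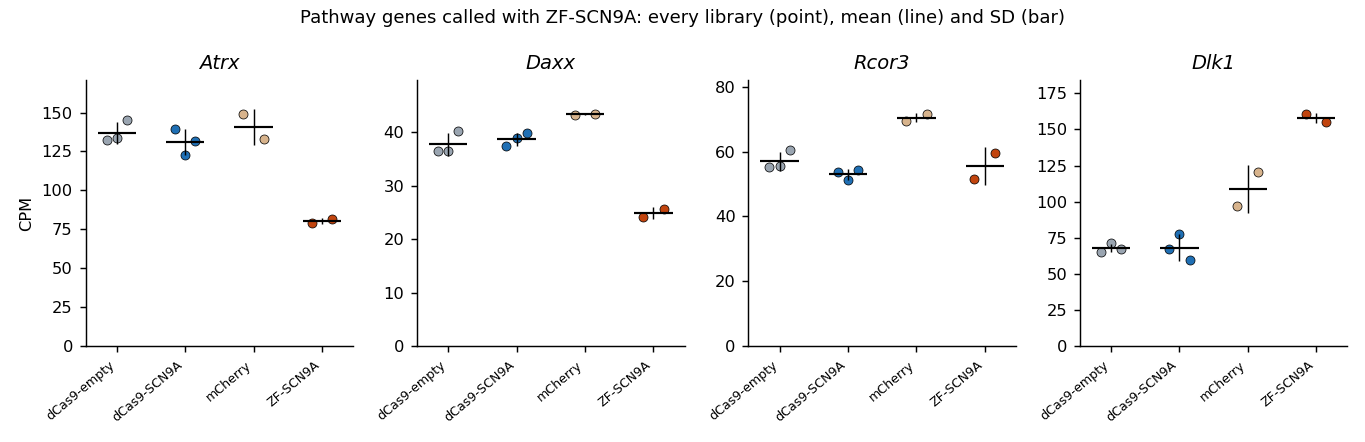
CPM of the 4 partner genes called with ZF-SCN9A in every library (points), with group mean (line) and SD (bar), each axis starting at 0. Atrx and Daxx are lower in both ZF-SCN9A libraries than in both mCherry libraries, and Dlk1 is higher.

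The promoters of Atrx, Daxx and Chd4 were also compared with that of Scn9a, a search chosen after their values were seen. The longest run of bases that the 250 bases before the Atrx start share with those of Scn9a is ACTGAACTGGA, 11 bases, on the same strand. Of 32850 other promoters, 5.32% share a run of at least 11 bases with Scn9a on either strand. The longest runs for Daxx and Chd4 have 9 bases, a length that 49.6% of promoters share with Scn9a. Where either repressor binds was not given in any source read, so these letters are a description only.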

How the data were processed

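RNA-seq libraries of 10 Neuro2a samples in 4 groups were read. The authors deposited raw counts per gene, with 1 unstranded and 2 stranded columns per library; the unstranded column was used. STAR 2.7.3a, bcl2fastq 2.20 and DESeq2 were run on build GRCm38, per the submitters' processing notes. Which annotation release was used, and how reads were assigned to genes, is not given in the sources used here. Of 55401 identifiers, 55141 matched GENCODE M21. Entries naming no gene (25.0 to 28.2% of reads) and 4 plasmid entries stayed out of library sizes.

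Repressor libraries were tested against those of the matching control with edgeR 4.0.16 (quasi-likelihood test) in R 4.3.3, beside limma 3.58.1, with TMM scaling, the filterByExpr filter and Benjamini-Hochberg adjustment over all tested genes at 0.05. The difference between repressors was a contrast in a single fit of 10 libraries. With 2 libraries a group, the estimated prior degrees of freedom were infinite for 88.0% of genes in the zinc-finger fit, 7 of the 10 genes among them, so its p-values rest on a spread pooled over genes. CPM and RPKM use TMM-scaled sizes, computed within each arm, and merged exon lengths. Levels in different arms thus have no common scaling.

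The 10 genes and the lists were chosen with earlier results of these data known. Named partners are every called gene and the 3 smallest p of each list in each comparison, of which 1 is not reported here. All replicate pairs differed beyond sampling noise. The labels do not say that replicates were separate cultures, so the spread behind each p-value is that between these samples and could be technical. On simulated counts, edgeR recovered 75.5% of changes of 0.5 (log2) with dCas9 and 61.6% with the zinc finger. Every simulated gene had the same spread and no exon length trend, so recovery in the real data could be lower. Changes as small as that of Dnmt3a with dCas9 (-0.24) were not simulated. Alternatives covered scaling, filters, DESeq2 1.42.0, limma-voom, strand columns, all libraries together, exon length, a replicate block and leaving out each library. DESeq2 after the edgeR filter was added after seeing the data.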

Additional observations from a re-analysis of the deposited data

Results flagged for a closer look

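The changes of Atrx and Daxx, each read against the control of its own arm, differed between the arms. Control, depth and the number of libraries differ between the arms too, so their parts and that of the repressor cannot be told apart. The change with dCas9 minus the change with the zinc finger was 0.75 ± 0.10 (log2) for Atrx and 0.85 ± 0.14 for Daxx in edgeR's interaction test. Both genes were lower in 2 of 2 ZF-SCN9A libraries than in both mCherry libraries, as were 22.3% of all tested genes.

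Reads on the plasmid entries, which lie outside the gene measurements, followed the labels. The zinc-finger entry averaged 39817 CPM, relative to gene counts, in ZF-SCN9A and 3.59 in mCherry. The dCCas9 entry averaged 11895 CPM in dCas9-SCN9A and 7962 in dCas9-empty, against 0 in the zinc-finger arm. The dNCas9 entry averaged 3684 CPM in dCas9-SCN9A and 4781 in dCas9-empty. The part of these plasmid differences in the gene results was not tested.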

How the results depend on the processing

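Counts of the 10 genes called moved as follows. With dCas9 it went from 0 to 1, Dnmt3a, with DESeq2, with no low-count filter and with the replicate block. With the zinc finger it went from 1 to 0 with DESeq2 (also after the edgeR filter), either stranded column and all 10 libraries in a single fit, and to 2 (Chd4 and Hdac2) with the replicate block, the exon length correction and both together. Leaving out single libraries gave 0 of the 10 with dCas9, where calls over all genes ran from 1 to 34. With the zinc finger, leaving out a library leaves 1 in a group, so no count is given. For the difference between repressors it was 0 under every alternative. The cause of these moves was not tested. Partners called stayed at 0 with dCas9 and within 3 to 5 with the zinc finger, 2 or 3 had a called difference between repressors, and Scn9a stayed called in both comparisons under all alternatives. Over all genes, calls were 6 in the main dCas9 test, 69 with DESeq2, 172 with no low-count filter and 262 with the replicate block. With the zinc finger they were 609 in the main test, 115 with DESeq2 and 128 with DESeq2 after the edgeR filter. Stranded columns 4 and 3 gave 275 and 283 there, and all 10 libraries in a single fit gave 348. The replicate block gave 569, the exon length correction 581 and both together 537.

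Whether the replicate numbers mark pairs was not settled. Same-numbered libraries correlated at 0.26, 0.20 and 0.04 in the dCas9 arm, and the other pairs at -0.26 to 0.11. There, not every library correlated best with its own number. The zinc-finger arm gave 0.068. With 2 libraries a group the centred values mirror each other, so that value cannot decide. With the replicate block, the difference between repressors called 0 of the 10 genes and 429 of all genes, and Dlk1 passed there (-0.54, edgeR adjusted p = 6.53e-04), as it did with no low-count filter (1.92e-04) and stranded column 4 (0.0427). With the zinc finger, Mest passed under the block (-0.17, edgeR adjusted p = 0.0287).

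Sign changes were limited to log2 fold changes that were not called. With dCas9, plain library sizes gave 0.0089 for Hdac1 and 0.0021 for Hdac2. No filter gave -8.24e-05 for Setdb1 and -0.0016 for Dlk1, the 1 CPM filter 5.64e-04 for Hdac1, and limma-voom -0.0015 for Dlk1. Stranded column 4 gave 0.019 for Hdac1, and column 3 gave -0.018 for Setdb1, 0.018 for Cbx1, 0.0097 for Cbx3, 0.0082 for Hdac2 and -0.0081 for Dlk1. The exon length correction gave -0.0035 for Trim28, 0.048 for Atrx and -0.0027 for Daxx, and with the replicate block -0.0034, 0.048, -0.0022 and, for Dlk1, -1.37e-05. Leaving out single libraries gave -0.065 to 0.020 for Cbx1, -0.047 to 0.059 for Hdac1, -0.039 to 0.012 for Hdac2, -0.085 to 0.057 for Dnmt1, -0.031 to 0.051 for Setdb1 and -0.10 to 0.10 for Dlk1.

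With the zinc finger, no filter gave -0.0088 for Hdac1 and -0.012 for Dnmt1, stranded column 4 gave -0.024 for Dnmt1, and the exon length correction gave -0.014 for Hdac1, or -0.018 with the replicate block. Leaving out single libraries gave -0.19 to 0.061 for Cbx1, -0.28 to 0.015 for Cbx3, -0.053 to 0.062 for Dnmt1, -0.047 to 0.070 for Hdac1 and -0.0073 to 0.070 for Trim28. For the difference between repressors, stranded column 4 gave -0.0048 for Cbx1, and column 3 gave 0.0080 for Trim28 and 0.079 for Dnmt3a. Leaving out single libraries gave -0.046 to 0.029 for Trim28, -0.093 to 0.022 for Cbx5, -0.077 to 0.050 for Hdac1, -0.091 to 0.051 for Dnmt1, -0.075 to 0.18 for Cbx1, -0.052 to 0.26 for Cbx3 and -0.13 to 0.017 for Dnmt3a.

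With 2 libraries a group and 4412097 to 7478956 counts, standard errors (log2) of the 10 genes in the zinc-finger arm were 0.06 to 0.09, beside a change of -0.23 for Chd4. Reads of overlapping genes on the other strand and of near-identical copies were not separated.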

Other observations

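The genes whose levels most resembled those of Trim28 over the 10 libraries, by Pearson's r of log2 CPM centred within each arm, were Rad9a (0.96), Tnfaip8 (0.95) and Acy3 (0.93), among 12833 genes. Those most like Dnmt3a were Thap12 (0.98), Map1b (0.98) and Wdfy3 (0.98). The libraries share depth and exon length effects within an arm, and these values are a description of so few points.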
